A study of Rattus norvegicus with 16 samples.

Results

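The genes described here are 10 genes of the cytotoxic programme of lymphocytes, namely the granzyme genes *Gzma*, *Gzmb*, *Gzmk* and *Gzmm*, the perforin gene *Prf1*, the granule membrane gene *Nkg7*, the receptor genes *Klrd1* and *Klrk1*, the cytokine gene *Ifng* and the transcription factor gene *Tbx21*. They were found by symbol, 1 row each, among the 21021 genes listed for every sample. *Gzma* was chosen by its measured FPKM, known from these data to be high on day 7 and low on day 14, and the other 9 were placed beside it to ask whether they follow the same course. *Gzma* is therefore described without a test, and counts are given over the other 9 genes.

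The samples were dorsal root ganglia (DRG), which hold the cell bodies of sensory neurons, from adult female Sprague-Dawley rats. Walker 256 rat mammary carcinoma cells had been placed in the marrow space of the left tibia (tumor-cell implantation, TCI), and the ganglia of spinal levels L3 to L5 on that side were taken on day 1, 7 or 14, the ganglia of 1 rat forming 1 sample. Sham rats had the same surgery, with phosphate-buffered saline according to the labels and with boiled tumor cells according to the published methods, and their ganglia were all taken on day 14, so that for days 1 and 7 tumor and time since surgery cannot be told apart. Each of the 4 groups had 4 samples. Day 1 sample 2 and day 7 sample 3 were left out of the analysis by the study, so the fits used the other 14 samples, and the values of the 2 left-out samples are printed beside the rest.

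Cytotoxic T cells and natural killer (NK) cells kill by releasing granules in which perforin opens a way into the target cell for the granzymes, a family of serine proteases. *Nkg7* encodes a membrane protein of these granules, *Klrd1* and *Klrk1* encode lectin-like receptors also known as CD94 and NKG2D, *Ifng* encodes interferon-gamma, the main macrophage-activating cytokine of these cells, and *Tbx21* encodes T-bet, a T-box transcription factor of the programme. Since RNA came from whole ganglia, more cells of a type and more RNA per cell cannot be told apart.

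The promoters of the 4 granzyme genes are shown because all 4 were higher in each day 7 sample used than in any sham sample, as was *Tbx21*, which encodes a factor that binds DNA, and because *Gzma* and *Gzmk*, neighbouring genes on chromosome 2, had different levels on day 14 (values below). The sequences are from the RefSeq promoter table of assembly GRCr8 and hold the 250 bases before the annotated start, 5′ to 3′ on the gene's strand, all 4 genes lying on the minus strand. The windows are chr2:46485697-46485946 for *Gzma*, chr15:34462470-34462719 for *Gzmb*, chr2:46582016-46582265 for *Gzmk* and chr7:10667257-10667506 for *Gzmm*. Capitals mark matches on either strand to a T-box site (GGTGTGA), to the core of a Runx site (TGTGGT) and to an interferon-gamma activated site (TTCNNNGAA).
Gzma: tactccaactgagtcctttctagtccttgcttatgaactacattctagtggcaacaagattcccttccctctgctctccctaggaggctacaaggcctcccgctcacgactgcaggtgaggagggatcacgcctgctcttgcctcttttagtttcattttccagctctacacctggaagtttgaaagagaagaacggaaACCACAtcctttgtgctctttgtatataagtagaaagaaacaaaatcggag
Gzmb: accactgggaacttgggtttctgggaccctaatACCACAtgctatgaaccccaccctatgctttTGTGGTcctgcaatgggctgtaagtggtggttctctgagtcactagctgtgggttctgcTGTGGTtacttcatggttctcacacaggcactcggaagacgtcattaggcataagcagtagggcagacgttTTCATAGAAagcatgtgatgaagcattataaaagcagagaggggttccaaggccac
Gzmk: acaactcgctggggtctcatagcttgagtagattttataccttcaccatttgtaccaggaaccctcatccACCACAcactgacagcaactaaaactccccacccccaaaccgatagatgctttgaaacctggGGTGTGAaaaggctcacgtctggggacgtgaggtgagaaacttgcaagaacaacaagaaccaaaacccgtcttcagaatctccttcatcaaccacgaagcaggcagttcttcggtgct
Gzmm: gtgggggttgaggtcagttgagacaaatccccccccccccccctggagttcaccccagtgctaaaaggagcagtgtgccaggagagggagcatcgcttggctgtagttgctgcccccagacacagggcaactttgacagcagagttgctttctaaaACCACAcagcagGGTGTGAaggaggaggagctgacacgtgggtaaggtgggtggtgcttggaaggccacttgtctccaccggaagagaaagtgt
A T-box site stood before *Gzmk* and *Gzmm* and not in the windows of *Gzma* and *Gzmb*. Of the 10 genes, 9 had an entry in the promoter table, all but *Klrd1*, and 2 of these 9 held the T-box site, against 3.22% of all 33469 promoter windows of this length. The Runx core was in 7 of the 9 windows against 14.5% of all windows, and the interferon-gamma activated site in 2 of the 9, *Gzmb* and *Nkg7*, against 7.67%. In the 4 sequences no capital run overlaps another. A match of letters is a description of the window and no test was made on it.

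*Gzma*, a tryptase and the gene that the others were compared with, was almost absent from sham and day 1 ganglia, with 3 of 4 samples at 0 and 1 at 0.05 FPKM (a count of sequenced fragments scaled for transcript length and sequencing depth) in each group. On day 7 it was listed at 2.66, 3.49, 4.02 and 3.02 FPKM in samples 1 to 4, the third of which was the left-out sample. On day 14 it was listed at 0, 0.59, 0.16 and 0.30 FPKM. Every day 7 sample lay above every sample of the other groups, and the mean on day 14 was 8.59% of that on day 7. On the log2(FPKM + 1) scale used for all differences below, the day 7 mean was 1.998 above sham and the day 14 mean was 1.70 below day 7. On this scale a change in a gene of low level is understated.

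*Gzmb*, the granzyme best known for starting apoptosis in target cells, was also high in all day 7 samples but was not low in all day 14 samples. It was listed at 0.82, 1.18, 1.48 and 1.04 FPKM on day 7, against 0 to 0.12 FPKM in sham and 0 to 0.11 FPKM on day 1. On day 14 samples 1, 3 and 4 had 0.09, 0.23 and 0.32 FPKM, while sample 2 had 2.32 FPKM, the highest *Gzmb* value of the series. The difference between day 7 and sham, 3 against 4 samples, was 0.92 ± 0.29 (SE; limma, adjusted p = 0.042), under the fold limit of 1 for a call. That between day 14 and sham was 0.55 ± 0.27 (adjusted p = 0.18). The SE, here and below, rests on the spread shared by all 4 groups, day 14 sample 2 included. With only day 7 and sham in the fit, the day 7 difference was 0.92 ± 0.11 (limma, adjusted p = 0.00065). The rat genome holds close copies of *Gzmb*, between which reads can be split, so its level is uncertain. Of 3 listed copies, named here after their values were seen, *Gzmbl2* had 2.43, 4.51, 4.06 and 3.33 FPKM on day 7 and 0.60, 3.55, 0.56 and 0.43 FPKM on day 14, again with sample 2 far above the other day 14 samples. *Gzmbl3* did not have this course, with 0.09 to 0.37 FPKM in sham, 0.23 to 0.46 FPKM on day 7 and 0.34 to 0.69 FPKM on day 14, where sample 2 had 0.42 FPKM, and *Gzmbl1* was at most 0.21 FPKM in any sample.

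*Gzmk*, a second tryptase and the neighbour of *Gzma*, kept a measurable level on day 14. Its values were 4.24, 9.35, 1.60 and 3.61 FPKM on day 7 and 1.51, 3.88, 0.95 and 1.07 FPKM on day 14, while no sham or day 1 sample exceeded 0.10 FPKM. *Gzmk* rose by 2.60 ± 0.30 on day 7 against sham (limma, adjusted p = 0.00015), and on day 14 the difference was 1.35 ± 0.28 (adjusted p = 0.0068). Its day 14 mean was 32.3% of its day 7 mean, the lowest share after that of *Gzma*. The left-out day 7 sample, with 1.60 FPKM, lay within the range of day 14.

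*Gzmm*, a granzyme with a preference for cutting after methionine, was the only one of the 10 genes with a level near 1 FPKM in sham, at 0.75 to 1.46 FPKM, and on day 1, at 0.55 to 1.00 FPKM. It was listed at 8.57, 8.91, 2.63 and 3.96 FPKM on day 7 and at 2.35, 4.15, 3.43 and 3.65 FPKM on day 14. Both later groups lay wholly above sham and overlapped each other. *Gzmm* rose by 1.93 ± 0.22 on day 7 (limma, adjusted p = 0.00015), and the difference between day 14 and sham was 1.09 ± 0.20 (adjusted p = 0.0043).

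*Prf1*, which encodes the pore-forming partner of the granzymes, went from at most 0.11 FPKM in every sham and day 1 sample to 5.02, 9.63, 2.91 and 4.23 FPKM on day 7. On day 14 it was listed at 1.59, 7.33, 1.25 and 1.91 FPKM. Sample 2 of day 14 was thus as high as day 7, and the other 3 lay below every day 7 sample. The rise on day 7 was 2.73 ± 0.36 (limma, adjusted p = 0.00032), and the day 14 difference from sham was 1.72 ± 0.34 (adjusted p = 0.0052).

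*Nkg7* had the largest difference from sham of the 10 genes on both later days. It was listed at 10.18, 16.69, 5.29 and 6.58 FPKM on day 7 and at 3.95, 15.91, 3.21 and 3.03 FPKM on day 14, against 0 to 0.21 FPKM in sham and on day 1. *Nkg7* rose by 3.40 ± 0.41 on day 7 (limma, adjusted p = 0.00021), and day 14 differed from sham by 2.50 ± 0.38 (adjusted p = 0.0014). As for *Prf1*, day 14 sample 2 stood with the day 7 samples and the other 3 stood below them.

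Of the receptor genes, *Klrk1* had its highest mean on day 14 and *Klrd1* on day 7. *Klrk1* was listed at 5.99, 9.74, 4.08 and 5.93 FPKM on day 7 and at 3.79, 23.61, 2.18 and 2.36 FPKM on day 14, against 0.20 to 0.43 FPKM in sham, the high mean of day 14 resting on sample 2 alone. *Klrd1* was listed at 1.49, 2.46, 0.48 and 0.71 FPKM on day 7 and at 0.68, 2.08, 0.69 and 0.80 FPKM on day 14, with no sham or day 1 sample above 0.06 FPKM. Day 7 and day 14 overlapped for both genes, and for *Klrd1* they overlapped also without day 14 sample 2. On day 7 *Klrk1* differed from sham by 2.63 ± 0.53 (limma, adjusted p = 0.0044) and *Klrd1* by 1.26 ± 0.23 (adjusted p = 0.0024), and on day 14 by 2.19 ± 0.49 (adjusted p = 0.010) and 0.96 ± 0.21 (adjusted p = 0.0097). With only the 2 compared groups in the fit, *Klrk1* differed by 2.63 ± 0.16 on day 7 (limma, adjusted p = 3.7e-05). On day 14 *Klrk1* then differed by 2.19 ± 0.58 (adjusted p = 0.052).

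*Ifng* was listed at 0 in all 8 sham and day 1 samples and above 0 in all 8 later samples. It had 0.41, 0.64, 0.15 and 0.08 FPKM on day 7 and 0.08, 0.98, 0.08 and 0.17 FPKM on day 14. These are very low values, the lowest being the smallest listed above 0 for this gene, and the number of fragments behind them is not known. *Ifng* did not reach the expression limit for testing. In the fit without that limit it differed from sham by 0.44 ± 0.19 on day 7 (limma, adjusted p = 0.16) and by 0.36 ± 0.17 on day 14 (adjusted p = 0.23). The study, with another test, names *Ifng* among its differentially expressed genes.

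*Tbx21*, the transcription factor gene, lay between 0.02 and 0.05 FPKM in every sham and day 1 sample. It was listed at 1.82, 2.45, 0.93 and 0.98 FPKM on day 7 and at 0.73, 2.02, 0.74 and 0.80 FPKM on day 14. *Tbx21* rose by 1.37 ± 0.20 on day 7 (limma, adjusted p = 0.00065), and on day 14 the difference was 0.95 ± 0.19 (adjusted p = 0.0054). The day 14 samples other than sample 2 lay below all day 7 samples.

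**Figure D1:**
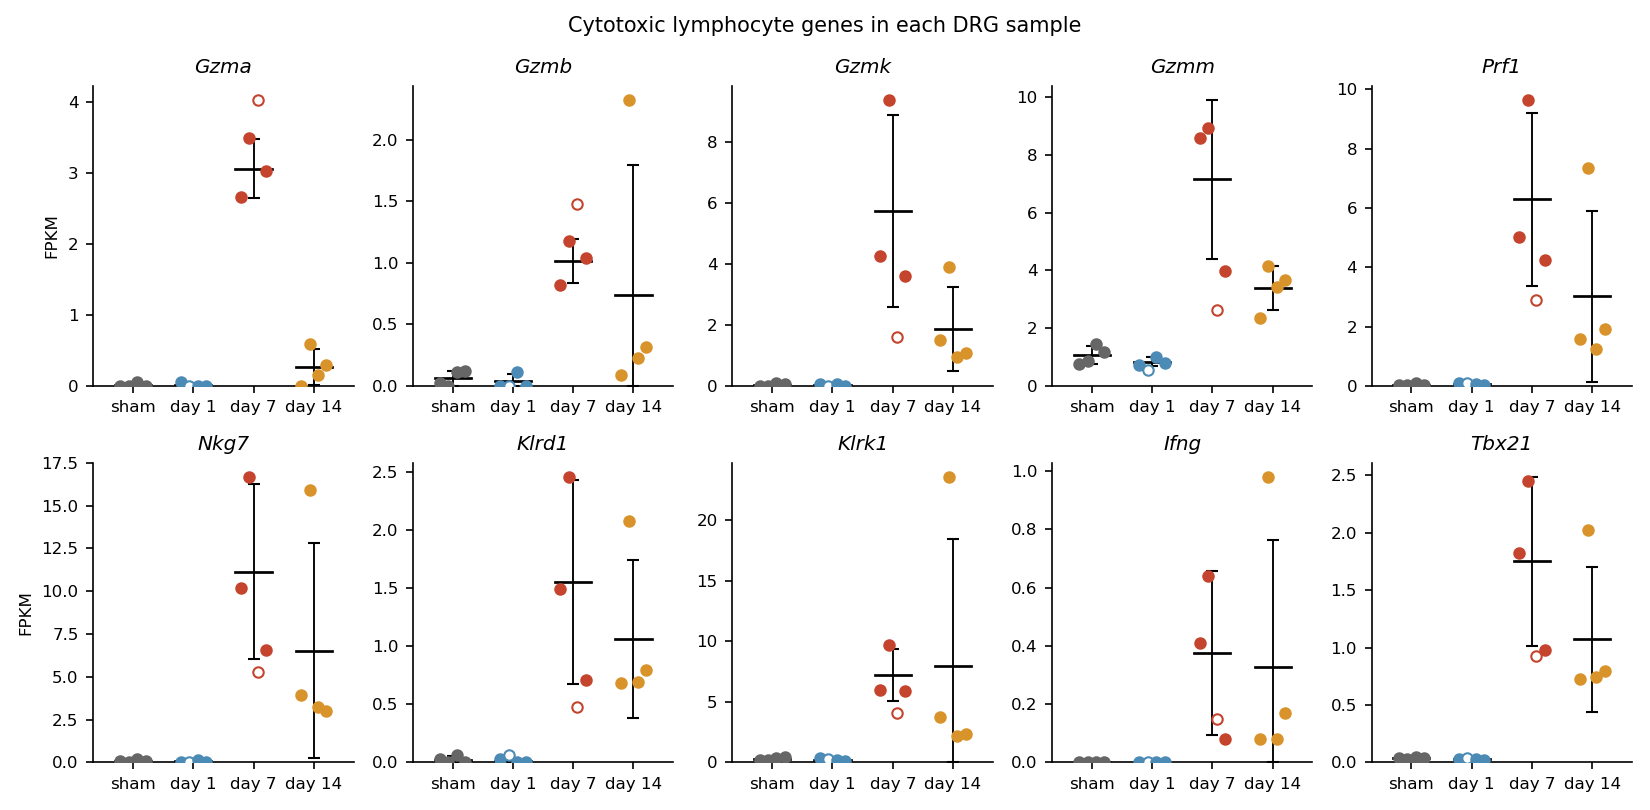
FPKM (vertical axes, each from 0) of the 10 genes in every sample of the sham, day 1, day 7 and day 14 groups, with the samples used as filled points, the 2 left-out samples as open points, the mean of the samples used as a horizontal line and the SD as an error bar cut at 0. Day 7 stands above sham for every gene, and in the day 14 column 1 sample, sample 2, is the highest point in every panel.

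On day 1 after TCI none of the genes could be told from sham. Of the 8 that could be tested, 0 were called higher than sham at the study's thresholds (limma), as were 0% of the 14023 genes tested. These thresholds are a log2 fold change of at least 1 and an adjusted p of at most 0.001. Only the thresholds are the study's. With another test it reported called genes on day 1 too, and more called genes on each later day than were found here. In the limma fit none of the 8 reached an unadjusted p under 0.05 either, against 5.23% of all genes. Their differences lay between -0.16 and 0.01.

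On day 7 the genes stood above sham together. All 9 had every day 7 sample used above every sham sample, a pattern found in 23.8% of the genes tested, among which *Ifng* is not counted. Of the 8 genes tested, 5 were called higher, *Gzmk*, *Gzmm*, *Prf1*, *Nkg7* and *Tbx21*, against 1.83% of all genes tested. At an adjusted p of at most 0.05 with the same fold limit *Klrd1* and *Klrk1* were added, making 7, against 3.93% of all genes. With only day 7 and sham in the fit, *Klrk1* was called at the stricter limit and *Tbx21* was not (limma, adjusted p = 3.7e-05 and 0.00103). Of the 8, *Gzmm* alone reached 1 FPKM in any sham or day 1 sample, so the others entered the test through the days on which they were high, and these counts describe them and support nothing. The count of 5 at the stricter limit rested on single samples: it was 1 without day 7 sample 1 or without day 7 sample 2, 2 without sham sample 1 or 2, and 3 without sham sample 3 or 4.

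On day 14 most of the genes were still above sham, with smaller differences than on day 7. For 8 of the 9, all but *Gzmb*, the day 14 samples lay wholly above sham, against 13.8% of the genes tested. None of the 8 tested was called at the study's thresholds (limma), where 0.642% of all genes were. Of the 8, 7 had an unadjusted p under 0.05 (limma), as did 29.9% of all genes. At an adjusted p of at most 0.05 with the same fold limit 5 were called, against 2.58% of all genes. These were *Gzmk*, *Gzmm*, *Prf1*, *Nkg7* and *Klrk1*. With only day 14 and sham in the fit, *Klrk1* was not called at that limit (limma, adjusted p = 0.052). As on day 7, all but *Gzmm* entered the test through the days on which they were high. The day 14 counts thus describe the genes and support nothing. Without day 14 sample 2 the count at the stricter limit was 3, and without day 7 sample 4, which enters through the shared spread, it was 1.

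Whether the other genes peaked on day 7 as *Gzma* did was then examined. In 8 of the 9 the mean was highest on day 7 among the 4 groups, the exception being *Klrk1*, against 37.1% of the genes tested. With all 16 samples it was 7 of 9, *Ifng* being the other exception with 0.32 FPKM on day 7 and 0.33 FPKM on day 14, against 35.6%. The median of day 7 was above that of day 14 in 9 of 9, against 57.4%. *Ifng* is not counted in these shares. The genes were chosen with earlier results of these data known, and of the 8 tested all but *Gzmm* entered through the later days. The peak counts therefore describe the genes and support nothing. The test of the difference itself did not call any of them. In limma, comparing 4 with 3 samples but taking the spread from all 14, 0 of 8 were called lower on day 14 than on day 7. Of all genes, 0.0143% were called at the stricter limit and 0.0499% at an adjusted p of at most 0.05. The differences ran from -0.30 ± 0.23 for *Klrd1* to -1.25 ± 0.30 for *Gzmk*, and 4 of the 8, *Gzmk*, *Gzmm*, *Prf1* and *Nkg7*, had an unadjusted p under 0.05, as did 9.96% of all genes. The adjusted p was 0.17 for *Gzmk*, 0.22 for *Gzmm*, 0.36 for *Prf1* and 0.50 for *Nkg7*. With only day 14 and day 7 in the fit, the unadjusted p was 0.064 for *Prf1* and 0.13 for *Nkg7* (limma). It was then 0.012 for *Gzmk* and 0.013 for *Gzmm*. In the fit of all 4 groups the 95% confidence interval reached from -1.58 to 0.71 for *Klrk1* and from -0.99 to 0.25 for *Gzmb*, intervals that hold both a fall and a rise.

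**Figure D2:**
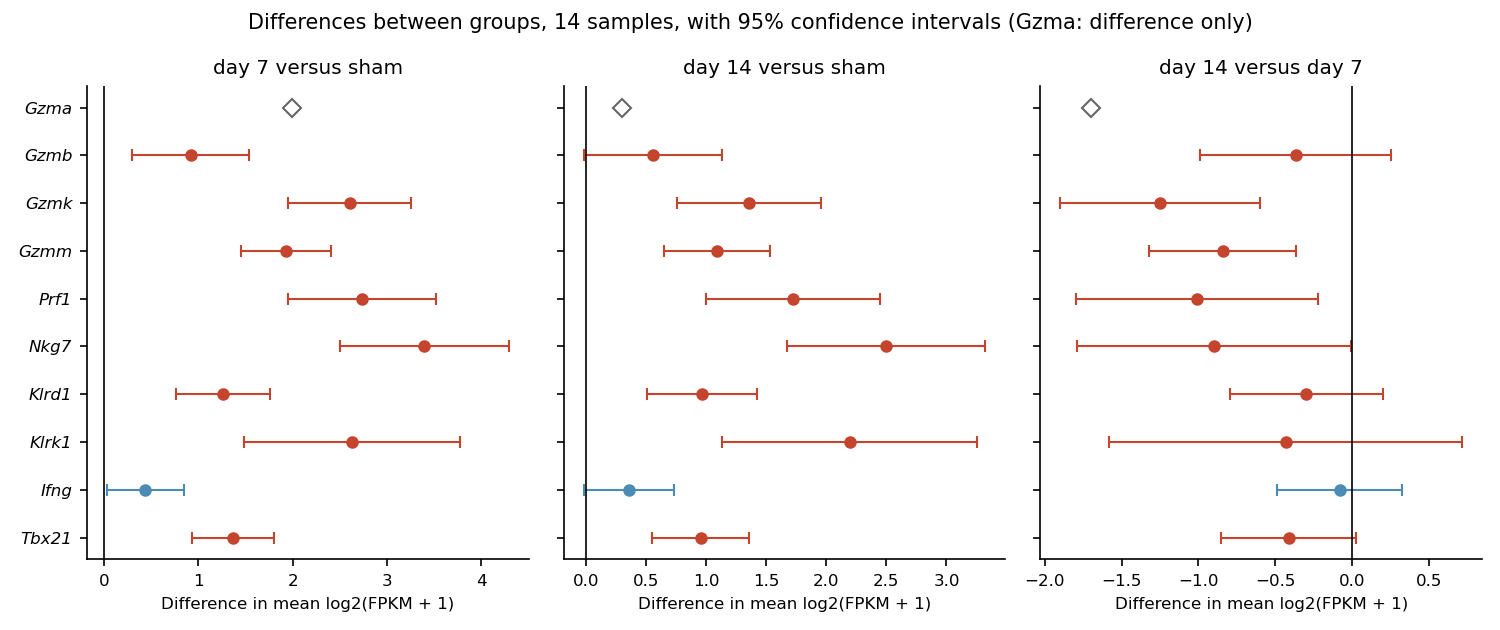
Differences in mean log2(FPKM + 1) between groups over the 14 samples used, with 95% confidence intervals from limma as bars, for day 7 against sham, day 14 against sham and day 14 against day 7. *Gzma* is shown as an open diamond without an interval and *Ifng*, in blue, is from the fit without an expression limit. The intervals of *Gzmk*, *Gzmm*, *Prf1* and *Nkg7* lie below 0 in the third panel before any adjustment for the number of genes. All intervals rest on the spread shared by the 4 groups. With only day 14 and day 7 in the fit, those of *Prf1* and *Nkg7* held 0, from -2.09 to 0.07 and from -2.13 to 0.33.

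Day 14 sample 2 stood apart from the rest of its group. It was the highest day 14 sample for 9 of the 9 genes, and for *Gzma*. Without it the day 7 samples used lay above the day 14 samples for 7 of the 9, all but *Klrd1* and *Ifng*, against 8.97% of the genes tested. In limma without this sample 4 of the 5 genes that still passed the expression limit were called lower on day 14 at an adjusted p of at most 0.05, against 0.33% of all genes. *Gzmk* fell by 1.54 (adjusted p = 0.0081), *Prf1* by 1.43 (adjusted p = 0.0060), *Nkg7* by 1.39 (adjusted p = 0.012) and *Klrk1* by 1.12 (adjusted p = 0.013), while *Gzmm* differed by -0.92 (adjusted p = 0.085). This removal was prompted by the values of these genes, so its p-values do not stand as a test of the groups. Without day 7 sample 4 1 gene, *Gzmm*, was called at that limit.

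The same sample was also highest on day 14 in other immune genes. Its summed level of the 17 T cell marker genes was 125 FPKM against 44.5 to 53.8 FPKM in the other 3 samples, that of the 12 macrophage markers 1859 against 518 to 676 FPKM, and that of the 16 genes of the interferon-gamma receptor and response 1135 against 253 to 329 FPKM. It was not highest in neutrophil markers, at 1.65 against 1.79 to 3.01 FPKM. Its sensory neuron markers, at 11980 FPKM, lay within the range of the others, 11656 to 14114 FPKM. The part of these differences in the result was not tested.

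Set against day 7, the genes kept very different shares of their level on day 14. The mean of all 4 day 14 samples was 73.0% of day 7 for *Gzmb*, 47.5% for *Gzmm*, 48.0% for *Prf1*, 58.5% for *Nkg7*, 68.4% for *Klrd1*, 61.3% for *Tbx21*, 86.9% for *Ifng* and 111% for *Klrk1*. Without day 14 sample 2 the shares were 20.5% for *Gzmk*, 21.1% for *Gzmb*, 25.2% for *Prf1*, 29.2% for *Ifng*, 30.5% for *Nkg7*, 38.5% for *Klrk1*, 43.2% for *Tbx21*, 44.0% for *Gzmm* and 46.6% for *Klrd1*. With or without that sample, no gene had a share as low as that of *Gzma*, which was 5.02% without it.

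**Figure D3:**
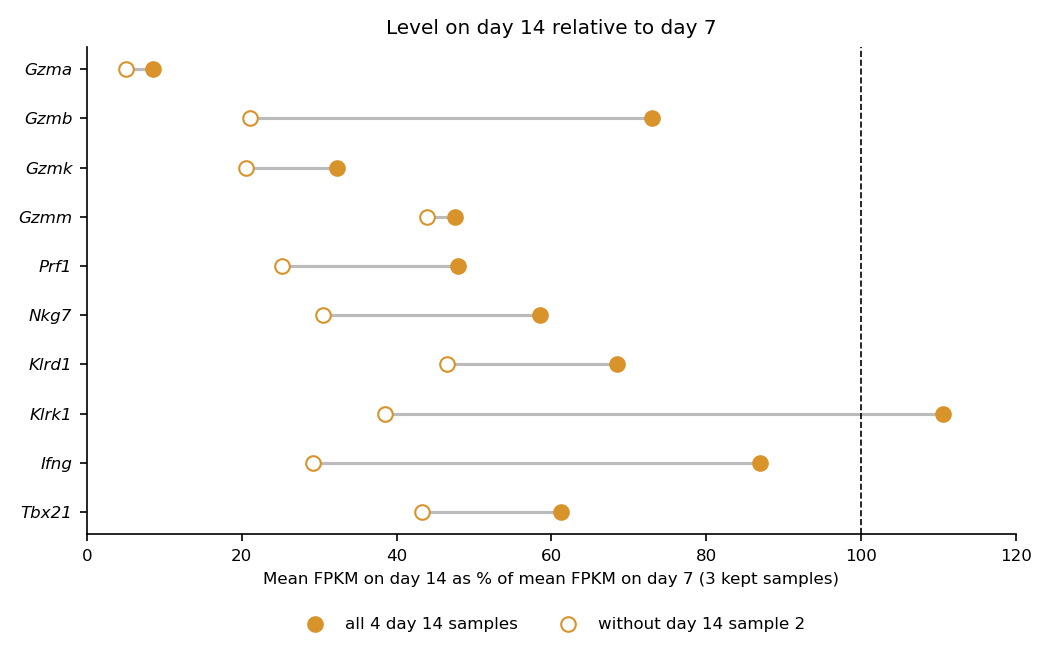
Mean FPKM on day 14 as a percentage of mean FPKM over the 3 day 7 samples used (horizontal axis) for the 10 genes, over all 4 day 14 samples (filled) and without sample 2 (open), with a dashed line where the 2 days are equal. *Gzma* lies at 8.59% and 5.02%, *Klrk1* crosses the dashed line with sample 2, and without it the other 9 genes lie between 20.5% and 46.6%.

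The granzymes were also compared within samples. The ratio of *Gzma* to *Gzmb* was 3.24, 2.96, 2.72 and 2.90 in the 4 day 7 samples and 0, 0.254, 0.696 and 0.938 in the 4 day 14 samples. The ratio of *Gzma* to its neighbour *Gzmk* was 0.627, 0.373, 2.51 and 0.837 on day 7 and 0, 0.152, 0.168 and 0.280 on day 14. Neither ratio overlapped between the days, also in sample 2, and since *Gzma* was chosen for this course the ratios are a description.

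The genes were next related to the T cell receptor complex, through the summed FPKM of the CD3 chain genes *Cd3d*, *Cd3e*, *Cd3g* and *Cd247*. This sum was 22.2, 35.9, 7.12 and 11.3 FPKM on day 7, 11.2, 32.0, 9.84 and 8.55 FPKM on day 14, and 0.24 to 0.50 FPKM in sham. The ratio of *Gzmk* to this sum was 0.191 to 0.320 in the day 7 samples used and 0.0965 to 0.135 on day 14, without overlap and with sample 2 of day 14 inside its group. Among the 9 genes 1, *Gzmk*, had this pattern, which was found in 0.0642% of the genes tested with the 14 samples and in 0.0499% with all 16, where *Gzmk* again was the 1 of 9. These shares count *Gzma* and *Gzmk* too. The CD3 sum reached 35.9 FPKM on day 7 and 8.55 FPKM on day 14, so a gene of steady level could not have the pattern. The shares are thus low by construction and do not mark *Gzmk* out. *Prf1* came close, with 0.226 to 0.375 on day 7 and 0.127 to 0.229 on day 14. *Tbx21* to CD3 ran from 0.0682 to 0.0870 on day 7 and from 0.0631 to 0.0936 on day 14, and *Klrd1* to CD3 from 0.0630 to 0.0685 and from 0.0609 to 0.0936, ranges that overlap. The ratio was chosen after the values were seen and was not tested.

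**Figure D4:**
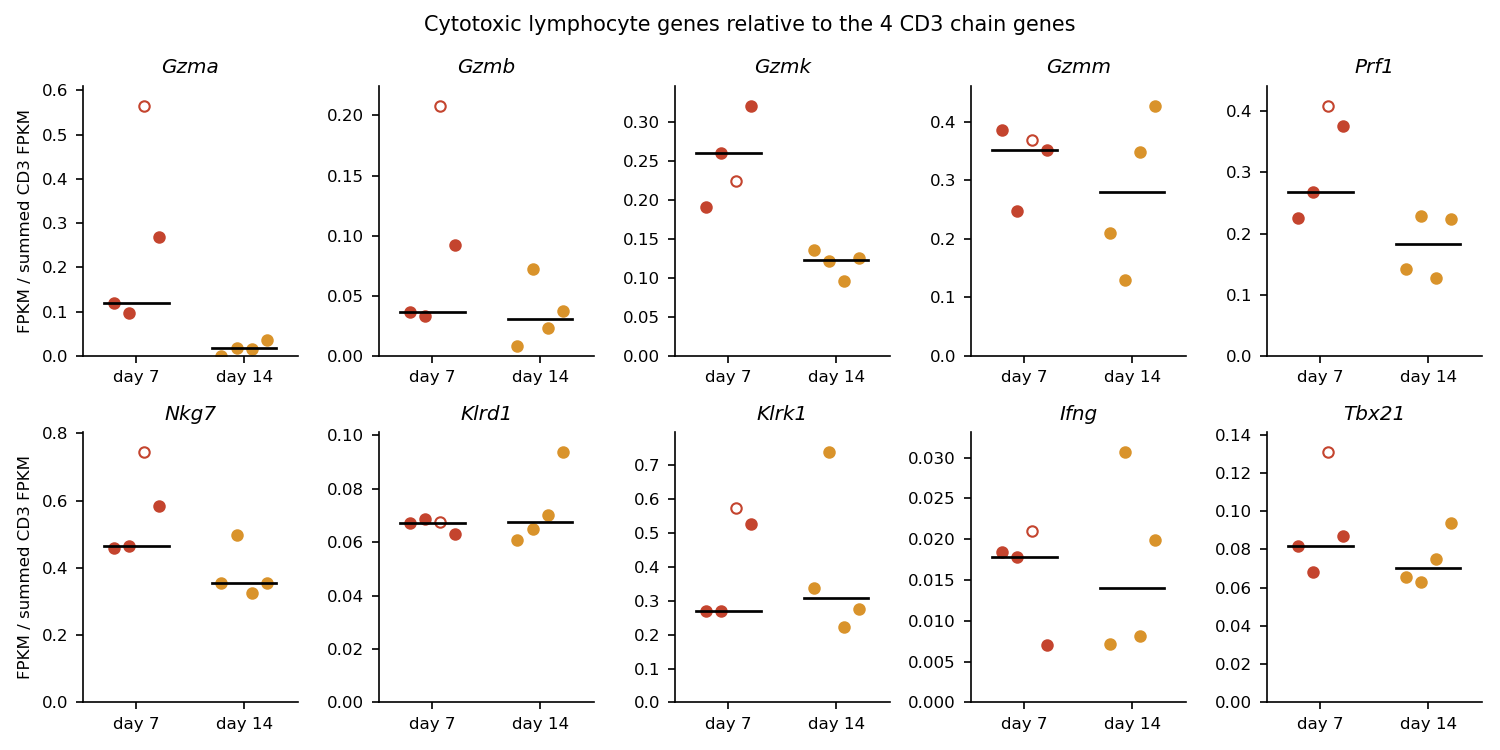
Ratio of the FPKM of each gene to the summed FPKM of the 4 CD3 chain genes (vertical axes, each from 0) in the day 7 and day 14 samples, with the left-out day 7 sample as an open point and the median of the samples used as a line. The days are apart for *Gzma* and *Gzmk* and overlap for the other 8 genes.

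Some other genes of the killing machinery were also higher on the later days. Lists of such genes are counted at the study's thresholds and at an adjusted p of at most 0.05 with the same fold limit (the looser limit), since the former count moved strongly when single samples were left out. That the looser limit comes first was decided after these counts were seen. For genes that no sham or day 1 sample had at 1 FPKM or more, which entered the test through the days on which they were high, such counts and p-values describe them and support nothing. Of 16 genes of granules and target killing that were listed beside them, 11 were tested, 5 rose on day 7 at the looser limit (5 to 6 on leaving out single samples) and 3 at the study's thresholds (1 to 5). Over all genes tested the shares on day 7 were 3.93% and 1.83%. The median difference was 0.96 against 0.04 over all genes tested, and 2 of the 11, *Ctsw* and *Cst7*, entered through the later days. The 3 were *Ctsw*, a cysteine protease of cytotoxic cells, by 3.26 ± 0.25 (limma, adjusted p = 1.8e-05), *Tnfsf10*, the death ligand TRAIL, by 1.75 ± 0.22 (adjusted p = 0.00023), and *Srgn*, the proteoglycan that packs granule proteins, by 1.43 ± 0.17 (adjusted p = 0.00020). On day 14 3 rose at the looser limit (3 to 5) and 1 at the study's thresholds (1 to 3), *Ctsw*, at 2.38 ± 0.23 (adjusted p = 0.00014). Over all genes tested the shares on day 14 were 2.58% and 0.642%. The adaptors through which *Klrk1* signals were called at the study's thresholds on both days, *Tyrobp* with 2.85 ± 0.28 on day 7 and 2.19 ± 0.26 on day 14 and *Hcst* with 2.25 ± 0.27 and 1.78 ± 0.25 (limma, adjusted p between 7.6e-05 and 0.00079). At those thresholds neither was called on day 14 when any 1 sham sample or day 1 sample 4 was left out, and 1 of them was called on day 7 without day 7 sample 1 or 2. *Hcst* entered the test through the later days, and macrophages carry *Tyrobp* as well.

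Receptors that mark NK cells were low. Of 19 such genes 2 passed the expression limit and 0 were called on any day at either limit (limma), as both stayed under the fold limit, on a scale that understates change in genes of low level. These were *Ncr3*, which encodes the receptor NKp30, and *Cd244*, which encodes the receptor 2B4. *Ncr3* differed from sham by 0.91 ± 0.15 on day 7 (limma, adjusted p = 0.0011) and 0.47 ± 0.14 on day 14 (adjusted p = 0.036), and *Cd244* by 0.72 ± 0.17 (adjusted p = 0.0097) and 0.57 ± 0.15 (adjusted p = 0.027). Neither reached 1 FPKM in a sham or day 1 sample, so both entered through the later days. *Ncr1*, the receptor NKp46 that defines NK cells, was listed at 0.49 to 0.74 FPKM in sham, 0.39 to 1.14 FPKM on day 7 and 0.32 to 0.61 FPKM on day 14, ranges that overlap. *Klrc1*, the NKG2A partner of *Klrd1* found on NK and CD8 T cells, was at most 0.04 FPKM in sham and on day 1, 0.28 to 1.99 FPKM on day 7 and 0.36 to 1.37 FPKM on day 14. The summed level of the 19 genes was 1.51 to 2.35 FPKM in sham, 5.03 to 15.1 FPKM on day 7 and 5.68 to 16.1 FPKM on day 14.

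T cell genes had higher levels on both later days. Of 17 T cell markers 14 were tested, and at the looser limit 13 rose on day 7 (13 to 14 on leaving out single samples) and 12 on day 14 (10 to 12), with medians of 1.86 and 1.66. Over all genes tested the shares were 3.93% and 2.58%. At the study's thresholds 10 (1 to 13) and 4 (0 to 6) were called, against 1.83% and 0.642% of all genes. The lowest count for day 7 was that without day 7 sample 1, sham sample 1 or sham sample 2. Of the 14, 13 never reached 1 FPKM in sham or on day 1 and entered through the later days, so these counts, and the p-values of *Cd8a* and *Cd3e*, describe the genes and support nothing. The CD8 co-receptor gene *Cd8a* rose by 3.29 ± 0.34 on day 7 (limma, adjusted p = 9.1e-05) and by 2.50 ± 0.31 on day 14 (adjusted p = 0.00055), and *Cd3e* by 2.96 ± 0.37 (adjusted p = 0.00023) and 2.43 ± 0.34 (adjusted p = 0.00090). The partner chain gene *Cd8b* was listed at 2.50, 4.13, 0.58 and 1.04 FPKM on day 7 and at 0.81, 1.20, 0.62 and 0.76 FPKM on day 14. The day 14 differences from day 7 were -0.78 ± 0.34 for *Cd8a* (adjusted p = 0.46) and -0.86 ± 0.22 for *Cd8b* (adjusted p = 0.22).

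Other transcription factors of the programme were not called, unlike *Tbx21*, a difference that was not tested. Among 11 effector transcription factor genes, *Runx3* and *Eomes* included, 7 were tested and 0 were called on any day at either limit (limma). The rest of the 11 did not reach the expression limit, so nothing is said of their change. Of the 7, 2 had an unadjusted p under 0.05 on day 7 and 2 on day 14. The shares over all genes tested were 31.2% and 29.9%. The medians of the 7 were 0.17 on day 7 and 0.15 on day 14. *Runx3*, whose product binds the Runx core, differed from sham by 0.09 ± 0.13 on day 7 (adjusted p = 0.69). *Id2* differed from sham by 0.44 ± 0.19 on day 7 (limma, adjusted p = 0.13). On day 14 *Id2* differed by 0.64 ± 0.18 (adjusted p = 0.027) and was uncalled at the looser limit only through the fold limit. Of 14 genes for the cytokines and receptors that drive effector cells, 10 were tested and 0 were called at the study's thresholds (limma). Of the 10, 9 had an unadjusted p under 0.05 on day 7 and 8 on day 14, against the same 31.2% and 29.9%. At the looser limit 4 rose on day 7 (4 to 5) and 5 on day 14 (1 to 5), against 3.93% and 2.58% of all genes tested. Of the 10 tested, 5, *Il2rb* included, entered through the later days. *Il2rb*, the receptor chain that interleukins 2 and 15 share, was among both, at 1.62 ± 0.31 (adjusted p = 0.0033) and 1.11 ± 0.29 (adjusted p = 0.022).

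Chemokine and interferon-gamma response genes rose on both later days. Of 8 chemokine and receptor genes of effector lymphocytes tested, 7 rose on day 7 (6 to 7 on leaving out single samples) and 7 on day 14 (5 to 7) at the looser limit, and 3 (2 to 7) and 2 (1 to 4) at the study's thresholds, led by *Ccl5*, a chemokine made by activated T cells, at 4.90 ± 0.43 (limma, adjusted p = 3.9e-05) and 4.45 ± 0.40 (adjusted p = 8.7e-05). Over all genes tested the shares were 3.93% and 2.58% at the looser limit and 1.83% and 0.642% at the study's thresholds. *Ifng* itself was below 1 FPKM in every sample. Of the 14 tested genes of its receptor and response 11 rose on each day at the looser limit (11 to 12 on both), and 4 (0 to 12) and 3 (0 to 10) at the study's thresholds, against the same shares. *Cxcl9*, a chemokine induced by interferon-gamma, rose by 3.44 ± 0.56 on day 7 (limma, adjusted p = 0.0012) and by 3.99 ± 0.52 on day 14 (adjusted p = 0.00069). Entry through the later days held for 3 of the 8 chemokine and receptor genes and for 2 of these 14. The median over the 14 genes was 2.36 on day 7 and 2.11 on day 14.

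Markers of other cells moved with these genes too. All 12 macrophage markers were tested, and at the looser limit 12 rose on day 7 (11 to 12) and 10 on day 14 (8 to 11), against 9 (3 to 11) and 7 (0 to 8) at the study's thresholds. Over all genes tested the shares were 3.93% and 2.58% at the looser limit and 1.83% and 0.642% at the study's thresholds. Entry through the later days held for 2 of the 12. Their summed level was 65.9 to 128 FPKM in sham, 819 to 1249 FPKM on day 7 and 518 to 1859 FPKM on day 14, and *Ptprc*, the marker of all leukocytes, which also entered that way, differed from sham by 2.58 ± 0.37 on day 7 (limma, adjusted p = 0.00050). Neutrophil markers summed to 0.65 to 0.99 FPKM in sham, 4.87 to 19.5 FPKM on day 7 and 1.65 to 3.01 FPKM on day 14, where all 4 samples lay below those of day 7. *S100a9*, a calcium-binding protein of neutrophils, differed by -1.76 ± 0.36 between day 14 and day 7 (adjusted p = 0.11). Haemoglobin went the other way, with *Hba1* at 10.4 to 32.9 FPKM on day 7 and 58.4 to 106 FPKM on day 14 (difference 2.17 ± 0.44, adjusted p = 0.11). B cell markers summed to at most 1.14 FPKM in any sample. The part of these cells in the course of the 10 genes was not tested.

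Sensory neuron markers summed to 8402 to 14395 FPKM over the 16 samples and all 12 were tested in each comparison. None was called at either limit (limma; 7 had an unadjusted p under 0.05 on day 7, 3 on day 14 and 0 on day 1, against sham). The shares over all genes tested were 31.2%, 29.9% and 5.23%. The lowest sum was that of day 7 sample 3, which held 6693 FPKM of the skeletal muscle actin gene *Acta1* against 4.64 to 6.95 FPKM in the other day 7 samples. This sample had the highest *Gzma* and *Gzmb* of day 7 and the lowest level of 7 of the other 8 genes. Sham sample 4 held 177 FPKM of *Acta1*. FPKM hold no fragment totals, so the depth behind each value is unknown, and a relative depth read from the lowest values in the files depended on how those values were picked and is not given.

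Among all tested genes, the course of *Gzma* over the 14 samples was matched most closely by genes outside the cytotoxic programme. The highest Pearson r with *Gzma* on the log2(FPKM + 1) scale was 0.988 for *Pla2g2a*, a secreted phospholipase, followed by *Csf3r*, the receptor for granulocyte colony-stimulating factor (0.963), *Lbp*, a lipopolysaccharide-binding protein (0.937), *Tagln*, a smooth muscle actin-binding protein (0.935), *Msr1*, a macrophage scavenger receptor (0.930), *Foxd1* (0.921), *Fbln1* (0.917) and *Slpi* (0.914). *Pla2g2a* was listed at 4.05, 5.65, 1.92 and 4.04 FPKM on day 7 and at 0.43, 0.79, 0.48 and 0.31 FPKM on day 14, so that, as for *Gzma*, all day 14 samples were low, sample 2 included. Of the cytotoxic genes *Gzmk* came first, with r = 0.886 and rank 31 of 14022, followed by *Gzmm* at 0.847 and *Prf1* at 0.839, and *Klrk1* came last at 0.703 and rank 963. The order depended on the samples. With all 16, *Pla2g2a* was again first, at 0.944, but only it and *Msr1* of the 8 were among the first 8, *Gzmk* had rank 178 and *Klrd1* came last at 0.658. *Foxd1*, alone of the 8, then fell below cytotoxic genes, with r = 0.733 and rank 759. It lay below *Gzmk*, *Prf1*, *Gzmb*, *Nkg7*, *Gzmm* and *Tbx21* and above *Klrk1* and *Klrd1*. Over the 8 day 7 and day 14 samples, a set chosen after the data were seen, *Msr1* had rank 8 and *Pla2g2a* rank 25, while *Gzmk* had r = 0.618 and rank 1000 and *Klrd1* came last at 0.203. The samples share group, depth and cell makeup, so these correlations are a description with no test.

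**Figure D5:**
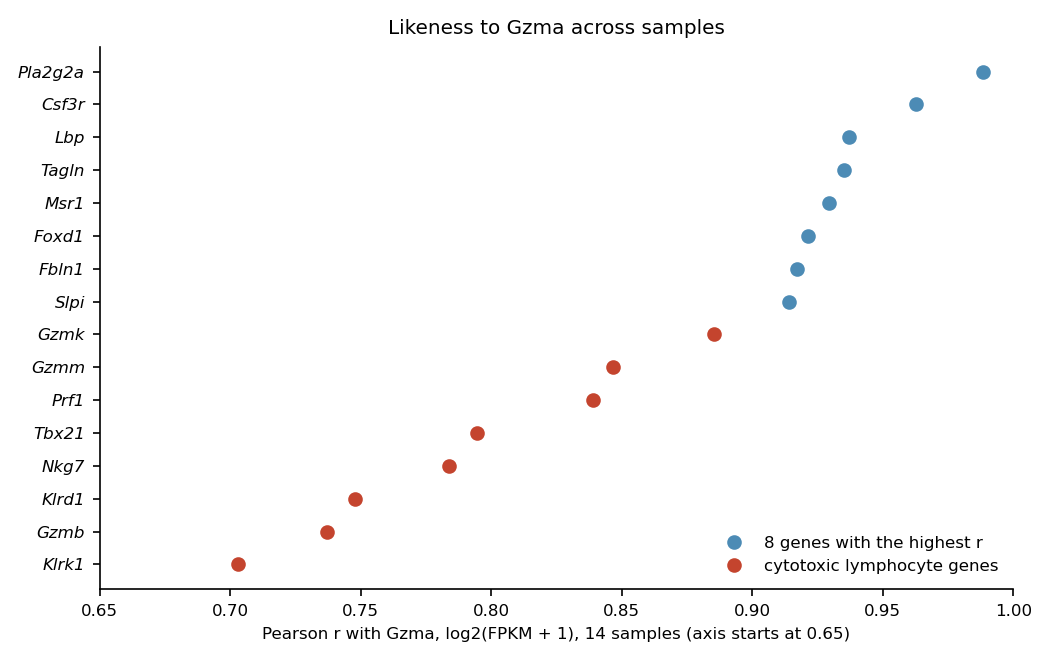
Pearson r of log2(FPKM + 1) with *Gzma* over the 14 samples used (horizontal axis, starting at 0.65) for the 8 tested genes with the highest r, in blue, and for the 8 tested cytotoxic genes other than *Gzma*, in red. The red points run from 0.703 to 0.886 and the blue points from 0.914 to 0.988. That red lies below blue follows from the choice of the blue genes as those with the highest r.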

How the data were processed

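RNA of 16 DRG samples was sequenced, and 1 table of FPKM per sample was deposited, rounded to 2 decimals. The authors trimmed reads, mapped them with HISAT or Bowtie2 and estimated the deposited FPKM with RSEM. The submitters' processing notes name CASAVA 1.4 and Bowtie2. The labels name Illumina library protocols and the published methods BGISEQ-500. Genome build and annotation are not given in the sources used here. Rounding, and the share of reads taken by other genes, limit low FPKM, and no counting error was computed.

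Groups came from the labels. The expression limit was 1 FPKM or more in 3 or more of the 14 samples used, which 14023 of 21021 genes met. These entered 1 limma fit on log2(FPKM + 1) over the 4 groups (limma 3.58.1, R 4.3.3, eBayes with trend), with Benjamini-Hochberg adjustment over all genes. It was tested on simulated data. The files held no counts, so the branch of the plan for normalized values was used. Tables were summarised with Python 3.11.15, pandas 2.3.3 and numpy 2.4.6 and plotted with matplotlib 3.10.9. Alternatives were all 16 samples, 2 groups per fit, no trend, quantile normalization, other expression limits, pseudocount 0.1, an adjusted p of at most 0.05, a replicate block and each sample left out. No pair of samples shared over 2.78% of values above 0. The labels do not say that same-numbered samples of different groups share a batch, and each sample is 1 rat.

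Genes named were the 10, per list up to 3 called genes with the largest day 7 difference (or its most expressed), the 5 list genes lowest and highest on day 14 against day 7, the 8 most like *Gzma*, and defining markers. *Il2rb*, *Runx3*, *Eomes*, *Klrc1* and *Cst7* were added after their values were seen. The members and lists were chosen with earlier results of these data known. Promoters were matched by gene identifier.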

Additional observations from a re-analysis of the deposited data

Results flagged for a closer look

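Of 38 groups of 4 samples examined for the 10 genes, 10 had 1 sample far from the other 3 by Dixon's criterion. The criterion flags about 1 in 20 by chance only when values are normally distributed, which low, rounded FPKM need not be. A group in which 3 samples have the same value and 1 differs is always flagged. The count of 10 therefore cannot be set against that rate and only describes the groups. The genes are not independent of each other, so the flags of 1 sample count as 1 event.

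In 7 of the 10 the far sample was day 14 sample 2, the highest of its group, with 2.32 FPKM of *Gzmb* (others 0.09 to 0.32), 7.33 of *Prf1* (1.25 to 1.91), 15.91 of *Nkg7* (3.03 to 3.95), 2.08 of *Klrd1* (0.68 to 0.80), 23.61 of *Klrk1* (2.18 to 3.79), 0.98 of *Ifng* (0.08 to 0.17) and 2.02 of *Tbx21* (0.73 to 0.80). *Gzma*, *Gzmk* and *Gzmm* were not flagged in this group. The other 3 flags were single values near the lowest that the tables list, 0.05 FPKM of *Gzma* in sham sample 3 and in day 1 sample 1 and 0.11 FPKM of *Gzmb* in day 1 sample 3, where the remaining samples were at 0.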

How the results depend on the processing

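No difference of a gene between day 7 or day 14 and sham, or between the 2 days, changed sign in any alternative fit. Since every day 7 sample used lay above every sham sample, leaving out a sample could not change the sign of that comparison. All fits were on a log scale. In mean FPKM *Klrk1* on day 14 was 111% of day 7, opposite in direction to its difference of -0.43 on the log scale. On day 1, where differences from sham were near 0, up to 6 of 8 changed sign, the 6 with the replicate block (differences of -0.11 to 0.23, lowest unadjusted p = 0.44, limma). The count of genes called higher on day 7, 5, was 4 to 7 under the alternative fits and the looser adjusted p of 0.05, 8 without a fold limit at that p, and 1 to 6 when each sample was left out. The count on day 14 against sham, 0, was 5 with a pseudocount of 0.1, 5 at an adjusted p of at most 0.05, 7 at that p without a fold limit, and 0 to 3 on leaving out samples. The counts on day 1 against sham and on day 14 against day 7 were 0 throughout, and 0 to 0 on leaving out samples. Of the single-gene differences between day 14 and day 7, here with *Gzma* included, 199 of 200 stayed on their side of the study's thresholds or within the replicate spread. The 1 that moved was of *Gzma*. For day 14 and day 7 against sham 178 and 164 stayed. Between day 14 and day 7 the lowest adjusted p of the 8 genes was 0.17 (limma), far from the limit. Staying uncalled was thus likely from the start and does not show that comparison to be the more stable. At an adjusted p of at most 0.05 with the fold limit, leaving out each sample, an alternative chosen after the data were seen, gave 5 to 7 on day 7, 5 to 7 on day 14 and 0 to 4 for day 14 against day 7, with 4 reached without day 14 sample 2. For the gene lists, 1065 counts stayed within a factor of 1.5 and 159 moved. The causes were not tested.

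With the replicate number as a block the counts were 0, 4, 0 and 0 for day 1, day 7 and day 14 against sham and day 14 against day 7. Same-numbered samples came from different rats and had correlations of -0.0952 to 0.269 over 18 pairs, with 6 of 14 samples closest to their own number. Whether same-numbered samples shared a batch is not said by the labels and was not tested. Without fragment numbers, values of *Gzma*, *Ifng* and *Gzmb* in sham and on day 1 cannot be told from 0.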
